A study of Mus musculus with 12 samples.

Results

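The regions described here are the stretches of acetylated chromatin that lie over the body and the end of genes rather than at their starts. They were chosen by annotation alone, as every H3K27ac region whose deposited annotation begins with Exon, 3' UTR, 5' UTR or Downstream, the last being within 300 bp past the end of a gene. This gave 1138 of 36387 regions (671 exonic, 377 in 3' UTRs, 68 in 5' UTRs and 22 just downstream), under 782 gene names on 19 chromosomes. Chromosome 16 was not analysed here. The mark was measured in mouse liver by ChIP-seq, the sequencing of DNA pulled down with an antibody to it. All mice carried the Cox10-floxed allele and had received 1 retroorbital dose of an AAV8 vector, with GFP for the group labelled wild-type and with Cre for the group labelled Cox10-/-, per the labels' protocols. After 4 weeks the mice underwent a 70% partial hepatectomy and the liver that regrew was collected on day 2, so that both groups shared the surgery, the virus capsid and the floxed allele. There were 3 H3K27ac libraries per genotype, and the 6 input libraries were not used. Strain, sex, age and the promoter that drives Cre are not in the labels, which also do not say that each library came from its own animal, so that p-values measure the spread between libraries, which may be technical. In whole liver, fewer cells that carry the mark and less mark per cell cannot be told apart.

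Cox10 makes heme O, the precursor of the heme A that cytochrome c oxidase needs to pass electrons to oxygen at the end of the respiratory chain. H3K27ac is deposited by the acetyltransferases p300 and CBP at active promoters and enhancers, and acetyl-CoA is the acetyl donor. Enhancers are not confined to introns and intergenic DNA: coding exons, UTRs and the sequence just past a gene's end can hold transcription factor sites, and a broad acetylated domain around a start site can reach over the first exons. The gene name attached to such a region says where it lies, not which gene it may regulate.

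The annotation gives a promoter class to any region within 3 kb of the start site it used, so few of these regions should hold a start. Of the 1104 regions on chromosomes that have entries in the RefSeq promoter table (GRCm38.p6, the assembly of mm10), 11 held a listed start, 7 of them the start of a predicted gene within or beside the named one and 4 the RefSeq start of the named gene itself. The 30 bases just before each of those 4 starts are shown because they are the exceptions to the rule, regions filed under an exon or 5' UTR that a second annotation places at a promoter. They are written 5' to 3' on the gene's strand, and capitals mark CG dinucleotides.
Gstz1: agacccacccctggtttcCGccccctgcct
Egf: aggtaatgtgCGcatgCGccagaagctgtc
H2bc6: acagcagctcactttctttttcttcctaag
Ethe1: taaggctctggCGgggCGgctgcagggctc
These stretches lie at chr12:87157573-87157602, plus strand, for Gstz1, which encodes the maleylacetoacetate isomerase of tyrosine breakdown, at chr3:129725087-129725116, minus strand, for the growth factor gene Egf, at chr13:23585971-23586000, minus strand, for the histone H2B gene H2bc6, and at chr7:24593878-24593907, plus strand, for Ethe1, the mitochondrial persulfide dioxygenase. TATAAA on either strand was found in 0 of the 4 windows of 300 bases around these starts, against 13.6% of all 32851 windows of that length, and CCAAT on either strand in those of Gstz1 and H2bc6, against 37.4%. All 4 regions were lower in Cox10-/-: the Gstz1 region fell from 278 ± 24.5 to 53.1 ± 14.8 normalised reads (mean ± SD, n = 3), and the log2 fold changes of the others were -0.90 for H2bc6, -0.83 for Egf and -0.57 for Ethe1.

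Acetylation of exonic, UTR and gene-end regions was lower in Cox10-/- liver at most of them. Of the 1138 regions, 957 (84.1%) fell, 83 (7.29%) rose and 98 passed the test in neither direction, where passing means a Benjamini-Hochberg adjusted p under 0.05 in limma on log2(normalised reads + 1), adjusted over all 36387 regions. Over the whole set 87.2% of regions fell and 4.46% rose, so that a fall was about as common here as everywhere. The size of the fall was larger: the median log2 fold change was -1.34, a 2.54-fold lower level, against -1.04 over all regions and -0.87 at promoters within 1 kb of a start. A level over 4-fold lower was seen at 238 of the 1138 regions (20.9%), at 5.48% of promoters and at 12.8% of all regions. The other 19269 regions away from promoters had a median of -1.28, with 18.4% over 4-fold lower, close to the values at exons, UTRs and gene ends. Of them 83.1% fell and 6.94% rose, shares that are close as well. The 3 Cox10-/- libraries all lay below the 3 wild-type libraries at 948 of the 1138 regions and all above them at 77 (over all regions, 86.4% and 4.44%).

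How much of this fall is common to the genome depends on how the libraries were scaled. The size factors behind the deposited values, which set the 2 genotypes apart, were between 0.730 and 0.782 in wild type and between 1.18 and 1.32 in Cox10-/-, while the reads in all regions were 3897454 to 4187377 and 3282878 to 3385453. With each library shifted to the same median over all regions, 556 of the 1138 (48.9%) were lower and 285 (25.04%) higher, with a median log2 fold change of -0.29, where 32.4% and 33.6% of all regions were lower and higher. The 83 regions that rose on the deposited scale were all higher on this scale too, and 104 that fell on the deposited scale were higher on it. Directions given below are on the deposited scale unless stated, and a log2 fall of about 1 is the median of all regions there.

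**Figure D1:**
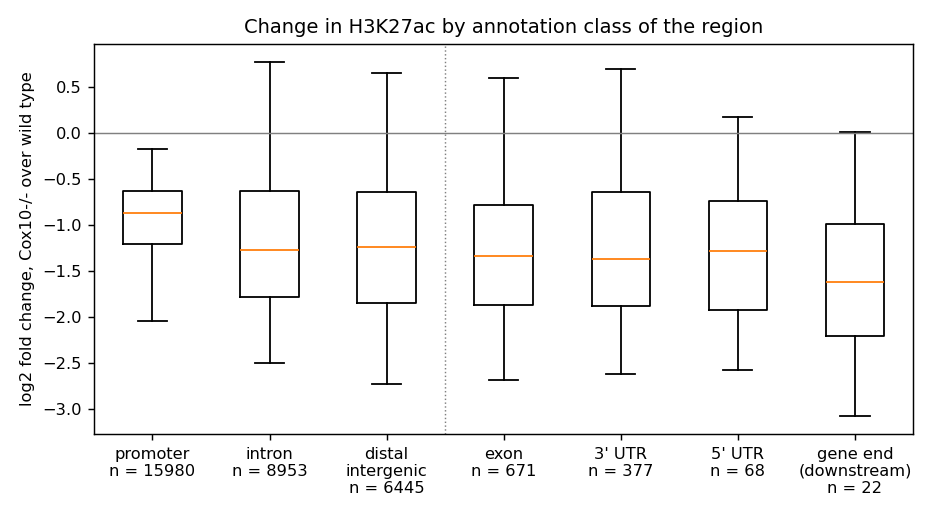
Log2 fold change of H3K27ac, Cox10-/- over wild type, by the annotation of the region. Boxes show the quartiles with the median as a line, whiskers the 5th and 95th percentiles over regions, and the dotted line parts the comparison classes on the left from the 4 classes described on the right. The medians of the 4 classes on the right lie between -1.61 and -1.29, below the -0.87 of promoters.

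The medians of the 4 classes lay between -1.61 and -1.29. Exonic regions had a median log2 fold change of -1.33 (566 of 671 lower, 51 higher), regions in 3' UTRs -1.37 (312 of 377 lower, 28 higher) and regions in 5' UTRs -1.29 (59 of 68 lower, 3 higher). The 22 regions just downstream of genes had the lowest median, -1.61, or 3.06-fold, with 20 lower and 1 higher. Within exons, the 527 regions in internal exons had a median of -1.40, and the 132 in a last exon -1.18, with 14 of those 132 higher. The difference between classes was not tested, since regions are not replicates of a condition. Counts also differed with level. Of the 501 regions with a mean at or above the median of all regions (74.8 normalised reads), 454 (90.6%) fell and 16 (3.19%) rose, and of the 637 below it, 503 (79.0%) fell and 67 (10.5%) rose. In the table as a whole, 94.1% were lower and 1.56% higher above the median level, and 80.2% and 7.36% below it.

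Measured within each library, exonic, UTR and gene-end acetylation lost ground to promoters. The median level of the 1138 regions was 94.5, 91.8 and 94.6 normalised reads in wild type, against 41.2, 40.4 and 37.1 in Cox10-/-. On a log2 scale this median minus that of promoters was -0.56, -0.56 and -0.50 in wild type, and -0.86, -0.86 and -0.84 in Cox10-/-. The genotypes did not overlap, and the difference of medians within a library depends on how the libraries were scaled to each other only through the pseudocount. The 1138 regions held 2.81, 2.84 and 2.84% of the signal in wild type and 2.495, 2.46 and 2.49% in Cox10-/-, again without overlap. The other regions away from promoters lost ground to promoters too. Their median log2 level, as a mean of 3 libraries, went from 6.36 in wild type to 5.22 in Cox10-/-, and that of promoters from 7.10 to 6.20. Against these other regions the median of the 1138 stood 0.19, 0.18 and 0.23 higher on the log2 scale in wild type and 0.11, 0.15 and 0.12 higher in Cox10-/-. No p is given for these values, which summarise the members.

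**Figure D2:**
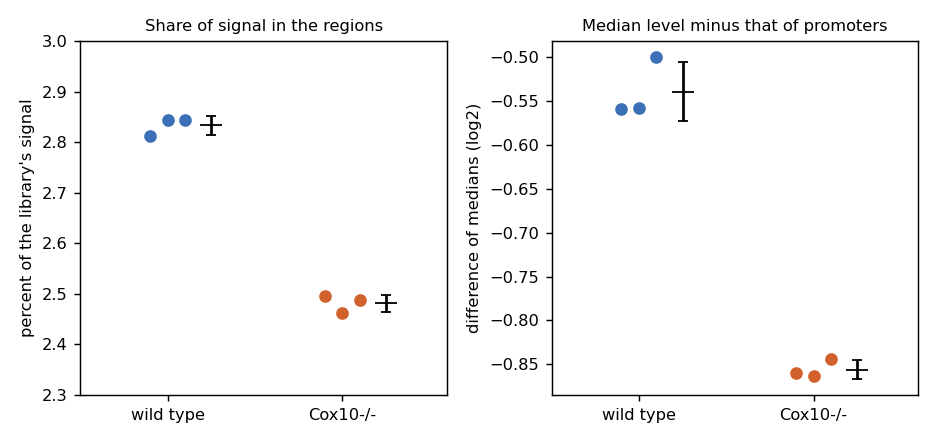
Values of each H3K27ac library, 3 per genotype (points), with the mean and SD beside them (bar). The left panel shows the percentage of a library's signal that fell in the 1138 regions, on an axis that does not start at 0, and the right panel the median log2 level of these regions minus that of promoters. The Cox10-/- libraries lie below the wild-type libraries in both panels.

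Predicted genes are left out of the rankings by class below. The deepest exonic fall of a region at or above the median level of the table was in Mgat5, the gene of the N-acetylglucosaminyltransferase that adds a branch to complex N-glycans. Its region in exon 11 of 18 (chr1:127396972-127398310) had 309, 286 and 327 normalised reads in wild type and 20.4, 27.4 and 21.2 in Cox10-/-, 12.9-fold lower (log2 fold change -3.69, SE 0.14, adjusted p = 1.93e-65). The promoter of Mgat5 went from 235 ± 12.2 to 147 ± 19.8, so the exon began above the promoter and ended far below it. The region in exon 9 of Cwf19l1 (chr19:44121834-44122353), which also holds the start of a predicted gene, fell from 145 ± 33.6 to 14.4 ± 2.65 (log2 fold change -3.23, SE 0.19, adjusted p = 8.16e-40). The region in exon 2 of Ldlrad3 (chr2:102112800-102113368), a membrane protein of the LDL receptor family, fell from 137 ± 16.98 to 14.8 ± 4.09 (log2 fold change -3.15, SE 0.19, adjusted p = 3.13e-38). The exonic region with the highest wild-type mean lay in Tns1, which encodes the focal adhesion protein tensin 1. It had 863, 749 and 852 normalised reads in wild type and 386, 349 and 323 in Cox10-/- (log2 fold change -1.22, SE 0.08, adjusted p = 2.35e-35), a fall near the median of exons.

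A smaller number of exonic regions rose. The widest exonic region of all, 5002 bp across exon 13 of 15 of Ssh2 (chr11:77441829-77446831), the slingshot phosphatase that acts on cofilin, had 391, 436 and 391 normalised reads in wild type and 863, 833 and 811 in Cox10-/-. Every Cox10-/- library lay above every wild-type library, 2.06-fold in the mean (log2 fold change 1.04, SE 0.08, adjusted p = 1.37e-29), while the promoter of Ssh2 fell from 304 ± 12.9 to 159 ± 11.4. In Dlgap1, the gene of a scaffold protein best known from the synapse, the region in exon 3 of 3 (chr17:70745558-70746804) rose from 43.9, 60.3 and 44.7 to 219, 187 and 168 normalised reads (log2 fold change 1.93, SE 0.14, adjusted p = 2.41e-31). Here the promoter rose as well, 3.05-fold. Tkt encodes transketolase of the pentose phosphate pathway. Its region in exon 5 of 14 (chr14:30564691-30565580) rose from 60.04 ± 11.7 to 134 ± 5.66 (log2 fold change 1.16, SE 0.14, adjusted p = 6.78e-14), and its promoter fell from 324 ± 7.96 to 153 ± 16.7. Abcc3 encodes the organic anion pump MRP3 of the basolateral hepatocyte membrane. Its region in exon 8 of 31 (chr11:94371025-94371748) rose from 49.1 ± 4.24 to 105 ± 6.12 (log2 fold change 1.08, SE 0.15, adjusted p = 5.17e-11), and its promoter was at 194 ± 3.92 and 186 ± 6.69 (adjusted p = 0.563).

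Among 3' UTR regions at or above the median level, the deepest falls were at Apba2, Pex11g and Rab36. Apba2, an adaptor that binds the amyloid precursor protein, had 225, 223 and 228 normalised reads at chr7:64752962-64753737 in wild type and 14.4, 27.4 and 22.7 in Cox10-/- (log2 fold change -3.37, SE 0.16, adjusted p = 7.09e-53). The region of Pex11g (chr8:3463605-3464346), a gene of peroxisome division, fell from 166 ± 8.08 to 19.7 ± 7.995 (log2 fold change -3.09, SE 0.18, adjusted p = 7.43e-42), and its promoter fell too (-1.83). The region of Rab36 (chr10:75052113-75052963), a small GTPase gene, fell from 332 ± 19.8 to 39.2 ± 5.88 (log2 fold change -3.06, SE 0.13, adjusted p = 1.07e-60). This Rab36 region also overlaps a predicted gene and lies 54 bp from a listed RefSeq start. The highest region annotated to a 3' UTR under a gene name that is not a predicted one lay at the end of Nodal (chr10:61425258-61427595), a ligand of the TGF-beta family, most of it past the gene's RefSeq end. It had 758, 645 and 723 normalised reads in wild type and 212, 232 and 185 in Cox10-/- (log2 fold change -1.76, SE 0.09, adjusted p = 4.18e-50). The widest such region, 2382 bp at C8a (chr4:104816833-104819215), which encodes a chain of complement component C8, fell from 656 ± 16.4 to 139 ± 12.6 (log2 fold change -2.24, SE 0.09, adjusted p = 1.24e-61), and the C8a promoter fell as well (-2.37).

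Of the 28 regions in 3' UTRs that rose, 24 had a mean below the median of all regions, and the 3 largest rises at or above it were at Psat1, Wdr93 and Aopep. Psat1 encodes phosphoserine aminotransferase of serine synthesis, a gene known to respond to ATF4. Its 3' UTR region (chr19:15905079-15905816) had 49.2, 47.9 and 40.9 normalised reads in wild type and 119, 102 and 105 in Cox10-/-, with no overlap (log2 fold change 1.22, SE 0.16, adjusted p = 4.07e-13). The Psat1 promoter was at 44.8 ± 11.1 and 55.3 ± 5.93, a difference that did not pass the test (adjusted p = 0.0937), and the ratio of the 3' UTR region to the promoter rose 1.87-fold (adjusted p = 0.00402). The region of Wdr93 (chr7:79785585-79786387) rose from 52.3 ± 17.00 to 107 ± 16.7 (log2 fold change 1.06, SE 0.16, adjusted p = 2.47e-10). The region of Aopep (chr13:63304715-63305441), an aminopeptidase gene that overlaps Fancc, had 85.1, 49.3 and 67.7 normalised reads in wild type and 78.2, 97.7 and 86.4 in Cox10-/-. These libraries overlapped, and the call (log2 fold change 0.40, SE 0.15, adjusted p = 0.0115) was lost without wild-type library 2, without Cox10-/- library 2, with DESeq2 and at a threshold of 0.01. Over its alternatives the adjusted p ran from 5.92e-23 to 0.252.

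The 5' UTR class held the region with the highest wild-type mean of all 1138. It covers 3129 bp of Nr5a2 (chr1:136946388-136949517), the nuclear receptor LRH-1 of bile acid and cholesterol control, and had 1360, 1341 and 1382 normalised reads in wild type and 542, 549 and 526 in Cox10-/- (log2 fold change -1.33, SE 0.07, adjusted p = 6.75e-47). The promoter region named for Nr5a2 fell further, from 307 ± 9.55 to 54.4 ± 7.301 (-2.48), and the ratio between them rose 2.22-fold (adjusted p = 2.30e-04). Among 5' UTR regions at or above the median level of the table, the deepest falls were at Gpat4, Elovl2 and Serpinc1. Gpat4 encodes a glycerol-3-phosphate acyltransferase of the endoplasmic reticulum, and its region (chr8:23191035-23191602) fell from 179 ± 4.25 to 30.8 ± 1.72 (log2 fold change -2.50, SE 0.15, adjusted p = 3.71e-39). Elovl2 elongates polyunsaturated fatty acids, and its region (chr13:41196248-41198353) fell from 431 ± 22.2 to 75.6 ± 10.02 (log2 fold change -2.50, SE 0.11, adjusted p = 3.38e-58). Serpinc1 encodes antithrombin, made by hepatocytes, and its 2039 bp region (chr1:160987483-160989522) had 772, 705 and 746 normalised reads in wild type and 144, 151 and 138 in Cox10-/- (log2 fold change -2.35, SE 0.09, adjusted p = 6.67e-67). At Serpinc1 the promoter fell by 2.02 on the log2 scale, and the ratio of region to promoter did not pass the test (adjusted p = 0.084), though it was lower against the mean of all Serpinc1 promoter regions (log2 change -0.79).

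The widest 5' UTR region, 3862 bp at the interferon-induced GTPase gene Iigp1 (chr18:60382698-60386560), fell from 1043 ± 26.7 to 459 ± 8.26 (log2 fold change -1.18, SE 0.07, adjusted p = 1.45e-37). The promoter region that carries the same name was low in both groups, at 36.05 ± 7.71 and 32.1 ± 5.53. The 3 regions of 5' UTRs that rose all had a mean level below the median of all regions. They include Abhd6, a hydrolase of monoacylglycerols, from 12.3 ± 6.36 to 54.8 ± 4.17 normalised reads, and Mknk1, a kinase of the translation factor eIF4E, from 25.2 ± 1.09 to 79.4 ± 13.8, and both were chosen after their values were seen. In both the 2 genotypes did not overlap. Abhd6 also held an exonic region that fell (log2 fold change -1.33).

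Just past gene ends, the deepest falls at or above that level were at Tmem220, Gpat3 and Fam120b. The Tmem220 region (chr11:67035433-67036382) had 314, 297 and 340 normalised reads in wild type and 33.1, 41.2 and 30.3 in Cox10-/- (log2 fold change -3.16, SE 0.13, adjusted p = 1.03e-60). Gpat3 encodes another glycerol-3-phosphate acyltransferase, and the region past its end (chr5:100899155-100899881) fell from 186 ± 19.4 to 21.2 ± 3.797 (log2 fold change -3.08, SE 0.16, adjusted p = 6.02e-46). Fam120b encodes a coactivator of PPAR-gamma, and its region (chr17:15433606-15434594) fell from 268 ± 19.7 to 35.7 ± 3.56 (log2 fold change -2.87, SE 0.14, adjusted p = 3.13e-53). Of the 22 downstream regions, 15 overlapped no RefSeq gene, and the Fam120b region overlapped a predicted one and lay 262 bp from a listed RefSeq start. The highest and widest of the class, 1161 bp at Tor1b (chr2:30959025-30960186), a torsin ATPase gene, had 339, 325 and 329.7 normalised reads in wild type and 113, 119 and 109.9 in Cox10-/- (log2 fold change -1.53, SE 0.11, adjusted p = 7.21e-33).

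**Figure D3:**
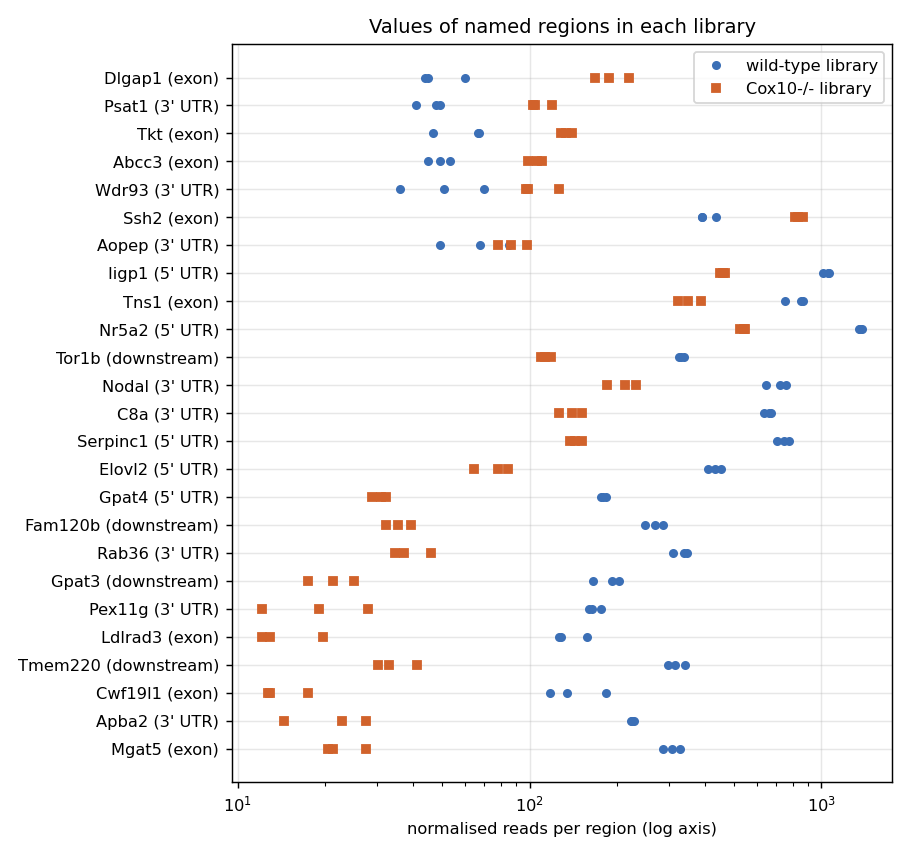
Normalised reads per region in each library (log axis) for the regions of largest rise and fall at or above the median level of the table, and of highest level or greatest width, in each class, sorted by log2 fold change. Circles are the 3 wild-type and squares the 3 Cox10-/- libraries. The genotypes do not overlap in any row except Aopep.

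To ask whether a region inside a gene followed the start of that gene, each region was divided by the strongest promoter region of the same gene in the same library, a ratio that, apart from the pseudocount, does not depend on how libraries were scaled to each other. This was possible for 919 of the 1138 regions, since 219 had no promoter region under their gene name. Of the 919, the ratio was lower in Cox10-/- for 356 (38.7%), higher for 198 (21.5%) and not called for 365, with a median log2 change of -0.23. Over all 16158 regions away from promoters that could be tested, 33.1% of ratios were lower and 22.4% higher. The promoters themselves were lower for 876 of the 919 regions and higher for 12. Across the 919 regions the log2 fold change of region and promoter had a Pearson correlation of 0.355 and a Spearman correlation of 0.328, a description over regions that share libraries and, in part, promoters. The other 15239 tested regions had a Pearson correlation of 0.406. By class, the ratio was lower for 199 and higher for 115 of 544 exonic regions, lower for 124 and higher for 67 of 299 in 3' UTRs, lower for 22 and higher for 13 of 57 in 5' UTRs, and lower for 11 and higher for 3 of 19 downstream.

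**Figure D4:**
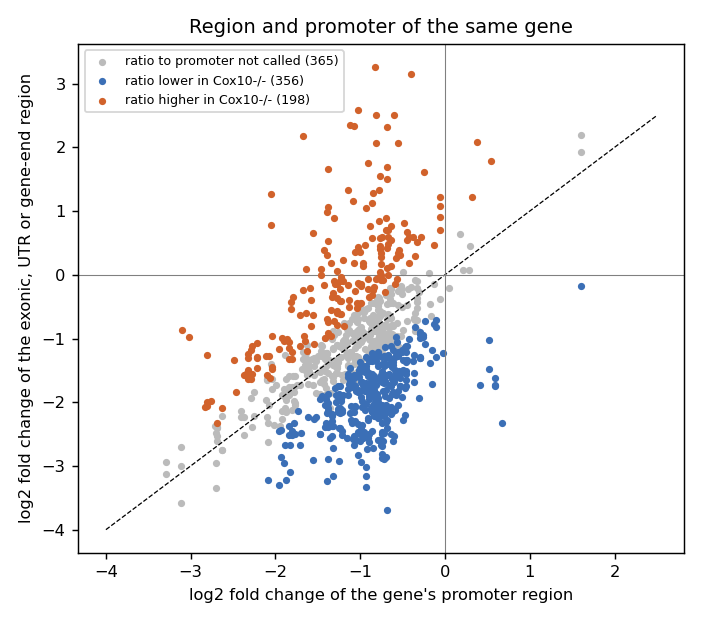
Log2 fold change of each exonic, UTR or gene-end region (vertical axis) against that of its gene's strongest promoter region (horizontal axis), for 919 regions. Colour shows the call on the ratio of the 2, and the dashed line marks equal change. Most points lie in the lower left, where both fell, and the 198 regions with a higher ratio lie above the line.

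Among regions at or above the median level of the table, the largest gains against the own promoter, beside Tkt (4.74-fold, adjusted p = 7.02e-06), were at 2 genes whose promoters lost most of their acetylation. The promoter of Rdh16f2, of the retinol and steroid dehydrogenase family, fell from 472 ± 18.1 to 57.4 ± 6.89, and its 3' UTR region (chr10:127876898-127877741) from 176 ± 3.11 to 89.2 ± 11.8, a 4.13-fold higher ratio (adjusted p = 2.92e-06). The Rdh16f2 3' UTR region also overlaps a predicted gene and lies 794 bp from a listed RefSeq start. At Fam47e the promoter fell from 144 ± 3.81 to 16.2 ± 4.43 and the 3' UTR region (chr5:92585287-92585973) from 175 ± 9.64 to 96.6 ± 16.7. The log2 fold change of these 2 regions on the deposited scale turned positive with centred libraries (0.19 for Fam47e and 0.07 for Rdh16f2). The opposite pattern was seen at Fads3, a fatty acid desaturase family gene. Its promoter was among the few that rose, from 43.7 ± 4.93 to 66.6 ± 8.75, while its 3' UTR region (chr19:10057785-10058385) had 144, 164 and 130.4 normalised reads in wild type and 52.7, 36.3 and 40.1 in Cox10-/-. The ratio was 5.08-fold lower (adjusted p = 1.09e-05), next to 8.07-fold at Mgat5 and 4.66-fold at Ldlrad3.

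The 83 regions that rose lay in 68 genes and were mostly weak, 67 of them with a mean below the median of all regions. Their median was 26.9 normalised reads in wild type and 57.0 in Cox10-/-, 35 rose over 2-fold and 13 over 4-fold. A rise over 2-fold was called at 724 of all 36387 regions and at 653 of the 20407 away from promoters. The 35 of 1138 are thus close to the share in regions away from promoters. Where they could be set against their own promoter, in 71 cases, that promoter was lower for 58, higher for 4 and not called for 9. Over all 919 regions with such a promoter it was lower for 876 and higher for 12. The ratio to it was higher for 67 of the 71 and lower for 0. That ratio reuses the values by which these regions were chosen as rising, so its direction was largely set by the choice. At Washc5, a subunit of the WASH complex of endosomes, the region in exon 25 of 29 (chr15:59338865-59339205) had 5.32, 4.11 and 6.39 normalised reads in wild type and 67.98, 61.3 and 47.7 in Cox10-/- (log2 fold change 3.26, SE 0.33, adjusted p = 4.91e-19). At Tnip1, an inhibitor of NF-kappaB signalling, exon 8 of 18 (chr11:54928611-54929154) had 1.33, 10.96 and 8.95 in wild type and 46.7, 66.99 and 58.3 in Cox10-/- (log2 fold change 3.15, SE 0.34, adjusted p = 4.69e-17). Both were near the lowest wild-type levels of the 1138 regions, and both promoters fell (-0.82 and -0.40).

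Ywhag, which encodes 14-3-3 gamma, rose from 23.9, 26.02 and 31.9 normalised reads to 121, 116 and 114 in its last exon (chr5:135911159-135911944; log2 fold change 2.07, SE 0.17, adjusted p = 4.16e-25). The rise spread over several regions in some genes. Sf3b3, a core subunit of the U2 snRNP, held 3 regions that rose, the strongest at exon 19 of 26 from 5.32, 10.96 and 15.3 to 64.6, 49.2 and 46.2, while its promoter fell (-0.68). A pair of regions in the 3' UTR of Ptrh2, a mitochondrial peptidyl-tRNA hydrolase, rose, the stronger from 12.03 ± 6.26 to 66.7 ± 8.51. Regions rose as well in Osbp, the oxysterol-binding protein (from 5.36 ± 3.71 to 34.00 ± 8.11), Kif13b, a kinesin (from 14.2 ± 4.22 to 73.8 ± 2.37), Acsl3, an acyl-CoA synthetase (from 3.98 ± 0.138 to 27.4 ± 2.36) and Slc6a12, the betaine transporter (from 9.66 ± 2.71 to 52.5 ± 7.42). Osbp also held a downstream region that fell (log2 fold change -0.94). The promoters of Osbp, Kif13b, Acsl3 and Slc6a12 were lower in Cox10-/- by log2 fold changes of -1.02, -1.07, -0.60 and -1.12. These genes, Washc5 and Tnip1 are below the level the naming rule asks for and were chosen after their values were seen.

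Neighbouring regions mostly carried the same call. Of the 1138, 884 (77.7%) lay within 1 kb of another region, as did 75.8% of all regions, and the neighbour was an intronic region for 421 and another exonic, UTR or gene-end region for 337. The call was the same as the neighbour's for 816 of the 884, and the median absolute difference in log2 fold change was 0.257. Of 762 regions that fell and had such a neighbour, 742 lay next to one that fell. As 87.2% of all regions fell, much of this agreement, and of the 816, is given by that share alone. Neither count was made over all regions. Of 61 that rose and had such a neighbour, 46 (75.4%) lay next to one that rose and 4 next to one that fell. Over all regions, 67.0% of those that rose and had such a neighbour lay next to one that rose. A count of regions is therefore not a count of separate acetylated domains.

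Of the 228 genes that held at least 2 of these regions, all of the gene's regions fell in 176, all rose in 7 and both directions occurred in 15. The gene with the most was Neat1, the long noncoding RNA that builds paraspeckles, which consists of a single exon in this annotation. Its 11 regions over 9496 bp all fell, by log2 fold changes of -1.53 to -0.90, and their sum in normalised reads was 797, 823 and 750.2 in wild type, against 378, 323 and 333 in Cox10-/-. The Neat1 promoter fell as well (-0.74), and 3 of the 11 regions fell relative to it. The 7 regions of the clock gene Per2 all fell (-2.12 to -0.32), and their sum was 1388 ± 18.1 in wild type and 674 ± 44.3 in Cox10-/-. All 5 exonic regions fell at Dgat2, the last enzyme of triglyceride synthesis, and summed to 1242 ± 35.3 in wild type and 278 ± 16.4 in Cox10-/-, each lower against the Dgat2 promoter too. All regions of these classes fell as well at Dpys, the dihydropyrimidinase of pyrimidine breakdown (991 ± 24.9 in wild type and 209.6 ± 17.6 in Cox10-/-), at Rab36 (632 ± 2.86 in wild type and 97.5 ± 9.800 in Cox10-/-) and, across 3' UTR and gene end, at Fam120b (1083 ± 22.9 in wild type and 286 ± 23.4 in Cox10-/-).

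Among genes that held at least 3 of these regions, Zap70, a kinase known from T cells, and Ldlrad3 had the lowest median log2 fold changes. The 3 exonic regions of Zap70 had log2 fold changes of -4.06 to -3.13 and summed to 279, 342 and 381 in wild type, against 28.04, 21.8 and 28.8 in Cox10-/-. Those of Ldlrad3 summed to 272 ± 16.9 in wild type and 28.1 ± 6.65 in Cox10-/-. Zap70, with fewer than 4 regions and a name outside the naming rule, was chosen after its values were seen. In the other direction, 3 of 4 regions of Abcc3 rose and 1 fell (-0.37 to 1.08), and their sum was 259, 220.5 and 257 in wild type, against 391, 370.4 and 362 in Cox10-/-. H6pd, the hexose phosphate dehydrogenase of the endoplasmic reticulum, had 2 regions that rose and 0 that fell (-0.30 to 0.77), and its promoter fell (-0.64). Strbp, which encodes an RNA-binding protein of sperm development, had 2 that rose and 1 that fell within 3053 bp of its 3' UTR (-0.62 to 1.32). Nav2, a neuron navigator gene, held 2 of each over 95209 bp (-2.05 to 0.69).

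**Figure D5:**
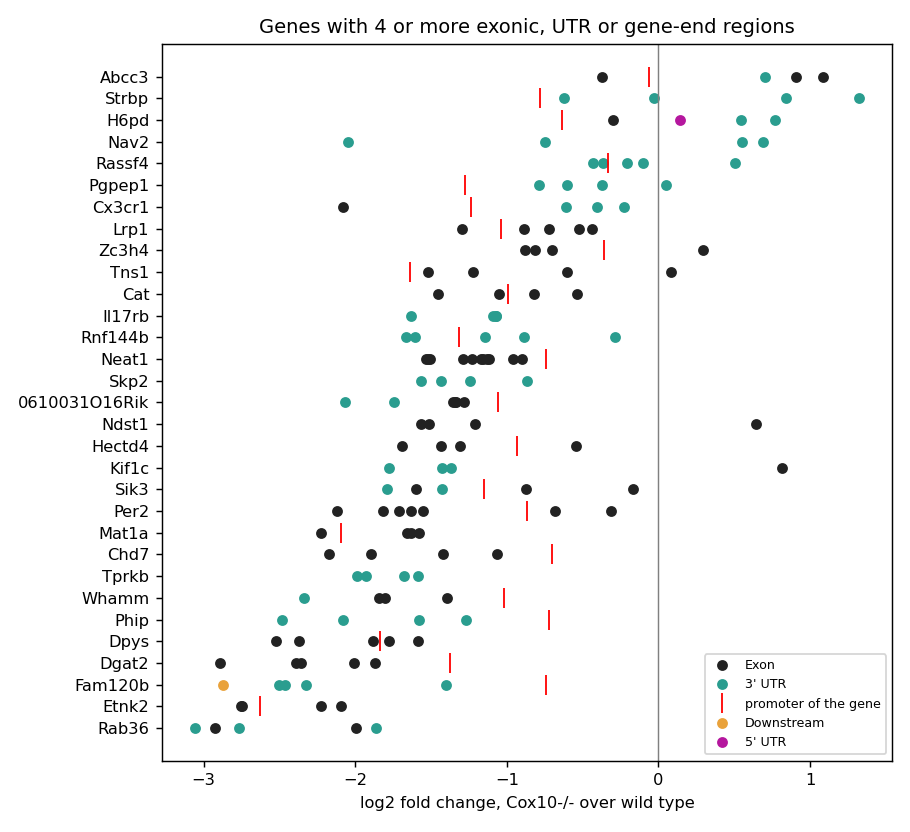
Log2 fold change of every exonic, UTR or gene-end region in genes that hold at least 4 of them, 1 row per gene sorted by its median. Points are regions coloured by class, and the red tick is the gene's strongest promoter region, where there is one. Rab36 and Etnk2 have the lowest medians, and only Abcc3, Strbp and H6pd have a median to the right of 0, though single regions of other genes lie there too.

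Liver functions were read from lists of genes, with the counts set beside the 87.2% lower and 4.46% higher of all regions. Secreted proteins of hepatocytes (plasma proteins, clotting factors, complement) had 27 regions in 17 genes, of which 26 fell and 0 rose, with a median log2 fold change of -1.99. Apart from C8a and Serpinc1 above, regions fell in Fga, F10, F11, Plg and Hp, and the region that did not pass the test lay in F5 (log2 fold change -0.24). Amino acid breakdown and the urea cycle had 22 regions in 14 genes, of which 21 fell and 0 rose (median -1.64). In this list Haao, the 3-hydroxyanthranilate dioxygenase of tryptophan breakdown, had 331, 278 and 307 normalised reads in an exonic region (chr17:83834785-83835992) in wild type and 33.99, 35.5 and 32.6 in Cox10-/- (log2 fold change -3.13, SE 0.13, adjusted p = 9.39e-60), and its promoter fell as well (-3.30). A second exonic region of Gstz1 (chr12:87158338-87159278) fell from 292 ± 7.47 to 38.9 ± 7.04 (log2 fold change -2.89, SE 0.13, adjusted p = 3.28e-55). Glucose and lipid metabolism had 18 regions in 10 genes, of which 17 fell and 0 rose (median -1.72). Pck1, the phosphoenolpyruvate carboxykinase of gluconeogenesis, fell from 269.6 ± 16.6 to 63.8 ± 2.21 at chr2:173156662-173157742 (log2 fold change -2.06, SE 0.12, adjusted p = 1.08e-40), less than its promoter (-2.81; adjusted p = 0.00219 for the ratio).

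Xenobiotic metabolism had 10 regions in 8 genes, of which 9 fell and 1 rose (median -1.44). The carboxylesterase gene Ces1g fell from 201 ± 15.4 to 79.99 ± 6.42 at chr8:93333307-93334057 (log2 fold change -1.32, SE 0.12, adjusted p = 4.51e-21). The glutathione S-transferase gene Gstm3 had 33.3, 41.1 and 52.4 normalised reads in wild type and 61.2, 64.6 and 57.6 in Cox10-/- at chr3:107964239-107964692 (log2 fold change 0.54, SE 0.18, adjusted p = 0.00381), a call that was lost without wild-type library 1 (adjusted p = 0.0523, and 1.27e-18 to 0.0523 over its alternatives). Ces1g and Gstm3 have near copies in the genome, between which reads can be split, so their values are uncertain.

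Hepatocyte transcription factors and nuclear receptors had 22 regions in 13 genes, of which 16 fell and 3 rose (median -1.24). Foxa3, a pioneer factor of liver genes, fell from 413 ± 20.5 to 111 ± 9.46 at chr7:19014709-19016151 (log2 fold change -1.89, SE 0.10, adjusted p = 5.88e-45), as did its promoter (-1.92). Hnf4a, the central regulator of hepatocyte identity, held regions that moved in opposite directions. The region in exon 9 of 10 (chr2:163568780-163569158) had 22.6, 27.4 and 30.7 normalised reads in wild type and 67.98, 52.5 and 43.2 in Cox10-/- (log2 fold change 0.98, SE 0.21, adjusted p = 9.24e-06). The region in an exon numbered 5 of 5 in another transcript (chr2:163558877-163559105) had 49.2, 34.2 and 42.2 in wild type and 19.6, 15.3 and 16.7 in Cox10-/- (log2 fold change -1.23, SE 0.26, adjusted p = 4.73e-06), and the call was lost with centred libraries. The promoter of Hnf4a was far stronger than both and fell from 1255 ± 3.59 to 479 ± 19.4.

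Among genes of ATF4 and mitochondrial stress, 8 of 9 regions in 6 genes fell and 1, Psat1, rose (median -1.12). Trib1, a pseudokinase gene linked to plasma lipids, fell from 228 ± 24.5 to 58.5 ± 4.25 in its 3' UTR (chr15:59653174-59653903; log2 fold change -1.94, SE 0.13, adjusted p = 4.33e-35), and the alanyl-tRNA synthetase gene Aars fell from 83.02 ± 7.39 to 23.2 ± 6.64 at chr8:111036955-111037340 (log2 fold change -1.83, SE 0.20, adjusted p = 8.11e-17). Relative to their own promoters 7 of the 9 fell and 1 rose, against 33.1% and 22.4% of all tested regions. These 9 regions lie in only 6 genes. Other lists differed: 3 fell and 6 rose of 26 for secreted proteins, and 2 and 5 of 17 for amino acid breakdown. For hepatocyte transcription factors it was 2 and 9 of 22, and for glucose and lipid metabolism 7 and 4 of 18. The immediate early list below had 9 and 6 of 20. Immediate early and growth factor response genes had 20 regions in 11 genes, of which 17 fell and 1 rose (median -1.56). Of the 20, 7 were at Per2 and 3 at Klf15, and the median over all 442 regions of this list was -0.89. Met, the receptor of hepatocyte growth factor, fell from 126 ± 9.15 to 27.1 ± 2.76 at chr6:17541256-17541747 (log2 fold change -2.17, SE 0.17, adjusted p = 1.33e-27). That region also overlaps a predicted gene and lies 50 bp from a listed RefSeq start. Per2 fell from 191 ± 7.38 to 53.6 ± 5.94 at chr1:91440116-91441043. Klf6, a zinc finger transcription factor, had 57.2, 53.4 and 47.3 normalised reads in wild type and 67.98, 72.6 and 78.04 in Cox10-/- at chr13:5864950-5865618, without overlap (log2 fold change 0.46, SE 0.17, adjusted p = 0.00613).

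Cell cycle genes had 2 regions, both annotated to the 3' UTR of Ccnd1, the gene of cyclin D1 that drives the entry of hepatocytes into the cycle, and both fell. The region at chr7:144929809-144930331, which also overlaps the neighbouring LTO1, had 126, 101 and 120.1 normalised reads in wild type and 84.1, 100.1 and 74.2 in Cox10-/- (log2 fold change -0.43, SE 0.14, adjusted p = 0.00214), without overlap though the second library of each group nearly met. The Ccnd1 promoter fell from 598 ± 22.8 to 169 ± 14.8, so that the ratio of that region to it rose 2.62-fold (adjusted p = 4.97e-05). With centred libraries the log2 fold change of that region became 0.62. Both Ccnd1 regions were higher with centred libraries, and both were higher relative to the promoter. Cytoskeleton and adhesion genes had 3 regions, of which the 3' UTR regions of the heparan sulfate proteoglycans Sdc1 (from 83.2 ± 10.7 to 33.5 ± 1.55; log2 fold change -1.28, SE 0.18, adjusted p = 2.21e-11) and Sdc4 (from 100.4 ± 13.9 to 45.4 ± 11.97; log2 fold change -1.15, SE 0.16, adjusted p = 3.73e-11) fell, calls that were lost with centred libraries.

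Markers of cell types gave little to read in these classes. Of 9 hepatocyte markers 8 had some region in the table, against 6 of 17 for macrophages and Kupffer cells, 6 of 15 for liver endothelium, 3 of 9 for biliary cells, 1 of 13 for stellate cells, 2 of 11 for lymphocytes, 1 of 7 for neutrophils and 1 of 8 for erythroid cells. The strong Hnf4a promoter is that of a hepatocyte gene. Summed over all their regions, the hepatocyte markers had 16468 to 17099.8 normalised reads in wild type and 4811 to 5485 in Cox10-/-, the macrophage markers 3843 to 4017 and 2421 to 2765, the endothelial markers 1201 to 1277 and 674 to 774, and the biliary markers 1419 to 1437 and 661 to 759.7, all lower without overlap. The sum over all regions of the table was lower too, at 5337860 to 5505420 in wild type and 2487190 to 2806480 in Cox10-/-. In proportion, the hepatocyte sum fell more than this total, the macrophage and endothelial sums fell less, and the biliary sum fell about as much. The lymphocyte sum (2 genes) was 155 to 174 in wild type and 46.8 to 58.6 in Cox10-/-. The neutrophil sum (1 gene) was 46.01 to 55.9 and 5.65 to 11.05. Both fell more than the total. The erythroid sum (1 gene), 226 to 237 and 127 to 144, fell less. The stellate sum (1 gene), 66.5 to 105 and 31.8 to 49.2, fell about as much. A larger fall was thus not confined to hepatocyte markers. The defining Kupffer cell markers Clec4f, Vsig4, Timd4 and Adgre1 and the endothelial markers Stab2, Clec4g and Kdr had no region. In the exonic, UTR and gene-end classes the macrophage list had 5 regions (3 lower, 0 higher), the endothelial list 3 (1 lower, 0 higher), the hepatocyte list 2, both at Hnf4a (1 lower, 1 higher), and stellate, lymphocyte, neutrophil and erythroid lists had 0. Names mislead for 4 of these. The exonic region named for Cx3cr1 (chr9:119932684-119933328), which fell from 168 ± 14.9 to 39.3 ± 7.21, lies in the RefSeq span of Gorasp1, and 2 of the 3 regions in 3' UTRs that carry its name lie in that of Xirp1. The region named for the endothelial receptor gene Gpr182 (chr10:127747767-127748477), which fell from 145 ± 7.92 to 58.5 ± 9.61, overlaps no RefSeq gene. The counts and sums of both lists include these regions. The part of cell makeup in the results was not tested.

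By RefSeq spans, 1081 of the 1138 regions overlapped the gene they were named for, 31 only another gene and 26 none, and 111 overlapped 2 or more genes. The median width was 445 bp (182 to 5002), and the median level 93.4 normalised reads in wild type and 38.9 in Cox10-/-. 0 of the regions carried the name Cox10, so the targeted gene gave no check of the labels here. The authors' deposited table, from their own test, calls 932 of the 1138 lower and 66 higher at the same threshold.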

How the data were processed

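H3K27ac was measured in 6 libraries, 3 per genotype. The authors deposited a table of normalised read counts per region (a signal), and 100% of its values, times 1 size factor per library, are whole reads within 0.01. It also holds log2 fold changes, p-values and a score (the test statistic) from the authors' own test, per the file headers. Per the labels' protocols, chromatin of a spike-in kit went into each immunoprecipitation. No source used here gives the origin of the size factors. The submitters' processing notes name deepTools 3.5.0, BWA 0.7.5 and MACS, with no role for any, and the build mm10. Coordinates are as in the table, whose counting base is not stated. Of 36446 regions, 59 repeats were dropped.

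Regions were tested with R 4.3.3 and limma 3.58.1, on log2(value + 1), with a variance trend and no filter, between 3 and 3 libraries. Fold changes are on that scale, which understates low regions. Benjamini-Hochberg adjustment ran over all 36387 regions, or all 16158 ratios to an own promoter, and the threshold was 0.05. The fit was tested on simulated data in which few regions changed, in both directions. That setting lacks the shift of most regions seen here, so it does not check the calls made under such a shift. Reads in the 1138 regions were 110851 to 119120 per wild-type library and 81656 to 83340 per Cox10-/- library. Alternatives were other pseudocounts, a filter on low values, centred libraries, a replicate block, leaving out each library, a stricter threshold, and, on the whole reads, DESeq2 1.42.0 and edgeR 4.0.16. Named regions are, per class, the 3 largest rises and falls among called regions at or above the median level, the highest and the widest, the 3 largest changes against the own promoter in each direction, and up to 2 per gene list and direction, without predicted gene names, and some that this rule picks are not reported here. The members and lists were chosen with earlier results of these data known, so no list is independent support.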

Additional observations from a re-analysis of the deposited data

How the results depend on the processing

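The deposited scaling decided the counts. With centred libraries 556 of the 1138 regions were lower and 285 higher (median log2 fold change -0.29), and with edgeR and TMM scaling 566 and 285 (-0.32). By class, centring gave 325 lower and 167 higher for exons (-0.28), 185 and 99 for 3' UTRs (-0.31), 32 and 17 for 5' UTRs (-0.23), and 2 higher with a median of -0.56 downstream. TMM gave 329 and 167 (-0.31), 188 and 99 (-0.34), 35 and 17 (-0.27), and 2 with -0.57. The regions of Fam47e (0.19 centred, 0.19 with TMM), Rdh16f2 (0.074 and 0.0709) and Ccnd1 (0.62 and 0.62) turned positive under both, and only Ccnd1 passed the threshold there. A pseudocount of 5 moved the median of all 1138 regions to -1.26, of 3' UTRs to -1.27 and of ratios to the own promoter to -0.16. Leaving out each library in turn gave 942 to 957 lower and 71 to 87 higher, and 312 to 331 lower and 184 to 197 higher against the own promoter. The replicate numbers do not pair the libraries: deviations from the group means correlated by -0.0125 to 0.00737 over all pairs, and not every library correlated best with its own number. With the replicate block the counts were 957 lower and 83 higher, and 344 lower and 197 higher against the own promoter, and the block changed no call of a named region. Against the mean of all promoter regions of a gene the ratios of Dlgap1, Tns1, Serpinc1 and the Hnf4a region of log2 fold change -1.23 passed the test, which they did not against the strongest one. The ratios of Ces1g and Klf6 lost their call without some libraries. Limma draws each region's variance towards a trend over all regions, so its SE is not that of its own libraries alone.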
